A study of Mus musculus with 10 samples.

Results

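Cytochrome P450 genes of families 1 to 4 and cytosolic glutathione transferase (GST) genes were examined in sorted mouse lung epithelial cells. Members were the genes whose platform symbol was Cyp followed by a family number from 1 to 4, a subfamily letter and a gene number, or Gst followed by the class letter a, m, o, p or t and a number. Only probe sets with 1 gene symbol were taken, and a gene with several such probe sets was represented by the brightest one on average. This gave 89 of the 22180 genes measured, 72 P450 genes and 17 GST genes. No filter on low values was applied, so all 89 were tested.

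RNA came from lungs at postnatal day 4 and was hybridised to 10 Affymetrix arrays, 5 for each of 2 sorted populations labelled as type 2 alveolar epithelial cells (AEC2s), the surfactant-making cells of the alveolus. SP-C+ cells carried YFP in SftpcCreERT2-R26REYFP mice, in which Cre that is active only with tamoxifen is driven by the surfactant protein C gene, and were collected after 24 h of lineage tracing. Axin2+ cells carried TdTomato in Axin2CreERT2-TdTomato mice, in which the same kind of Cre is driven by Axin2, a target gene of Wnt signalling, and were sorted as EpCAM+, CD31- and CD45-. The genotype labels give these as SftpcCreERT2-R26REYFP and Axin2CreERT2-TdTom, all mice were of mixed C57BL/6, 129S6 and CD-1 descent, and the labels list no treatment. No AEC2 marker is named in the Axin2+ gate. A description shared by all samples speaks of cells from P3 and adult mice, but each title and age label gives day 4, which was used. The comparison therefore asks how AEC2-labelled cells marked through the Axin2 driver differ from those marked through the surfactant protein C driver. No tracing time is given for Axin2+ cells. Driver, reporter and gate, and possibly tracing time, differ between the groups and cannot be told apart from the population. No label says that the 5 samples of a group came from separate animals, so p-values measure the spread between these samples, which may be partly technical.

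P450 enzymes are heme proteins of the endoplasmic reticulum that add oxygen to fatty acids, steroids, eicosanoids and foreign chemicals. GSTs couple glutathione to reactive compounds, among them products of P450 reactions and of lipid peroxidation. In the lung, both are best known from the club cells of the airway, where P450s turn inhaled compounds such as naphthalene into reactive products and glutathione removes them.

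The promoters of 8 members are printed first, taken from runs of neighbouring genes. Most members lie in such runs, so a place in a run does not set these genes apart. The steepest falls, in Cyp3a13 and Cyp4v3, were in genes with no other member nearby. Cyp2s1, Cyp2b10 and Cyp2f2 lie in 1 run on chromosome 7 and rose, whereas Cyp2b13 and Cyp2b23 of the same run did not pass the test, and Gstp1, Gstp2 and Gstp3 form a run on chromosome 19 in which all members fell. Each line gives the 250 bases before the annotated start, 5′ to 3′ on the gene's own strand, from RefSeq on GRCm38.p6. Capitals mark matches to any of 6 motifs described further on.
Cyp2s1 (chr7:25816526-25816775, minus strand): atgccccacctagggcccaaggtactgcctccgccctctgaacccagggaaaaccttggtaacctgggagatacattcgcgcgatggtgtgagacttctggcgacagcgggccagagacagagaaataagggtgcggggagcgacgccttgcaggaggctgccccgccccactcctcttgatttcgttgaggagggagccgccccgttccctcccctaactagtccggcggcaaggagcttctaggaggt
Cyp2b10 (chr7:25897408-25897657, plus strand): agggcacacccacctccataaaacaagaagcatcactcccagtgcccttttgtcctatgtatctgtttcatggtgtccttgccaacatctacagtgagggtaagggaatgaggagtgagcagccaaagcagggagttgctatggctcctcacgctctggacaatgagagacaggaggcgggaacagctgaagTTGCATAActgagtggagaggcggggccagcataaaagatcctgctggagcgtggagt
Cyp2b13 (chr7:26061245-26061494, plus strand): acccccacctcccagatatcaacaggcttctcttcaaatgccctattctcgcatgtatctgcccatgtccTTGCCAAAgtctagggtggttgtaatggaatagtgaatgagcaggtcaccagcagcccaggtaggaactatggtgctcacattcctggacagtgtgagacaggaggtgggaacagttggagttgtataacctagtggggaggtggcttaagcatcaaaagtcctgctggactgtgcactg
Cyp2b23 (chr7:26686431-26686680, minus strand): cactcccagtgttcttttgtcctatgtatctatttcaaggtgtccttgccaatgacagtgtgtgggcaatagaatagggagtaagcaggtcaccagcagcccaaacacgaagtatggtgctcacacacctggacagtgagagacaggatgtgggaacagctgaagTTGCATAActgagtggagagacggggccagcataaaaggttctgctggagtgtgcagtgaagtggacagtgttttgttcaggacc
Cyp2f2 (chr7:27119705-27119954, plus strand): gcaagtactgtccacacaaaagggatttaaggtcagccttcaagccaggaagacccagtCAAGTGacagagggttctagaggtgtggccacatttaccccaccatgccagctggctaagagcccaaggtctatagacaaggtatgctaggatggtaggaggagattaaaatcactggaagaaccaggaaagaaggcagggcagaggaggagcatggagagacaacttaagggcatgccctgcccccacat
Gstp1 (chr19:4037913-4038162, minus strand): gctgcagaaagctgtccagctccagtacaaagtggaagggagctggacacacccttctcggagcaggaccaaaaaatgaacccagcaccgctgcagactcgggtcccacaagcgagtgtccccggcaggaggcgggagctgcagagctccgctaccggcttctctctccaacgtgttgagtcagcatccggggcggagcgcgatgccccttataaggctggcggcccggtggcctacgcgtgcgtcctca
Gstp2 (chr19:4042222-4042471, minus strand): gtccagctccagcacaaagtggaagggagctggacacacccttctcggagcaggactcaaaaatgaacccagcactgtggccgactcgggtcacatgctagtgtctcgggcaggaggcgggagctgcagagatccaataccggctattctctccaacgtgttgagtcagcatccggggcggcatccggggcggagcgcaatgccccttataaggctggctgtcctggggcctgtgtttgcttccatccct
Gstp3 (chr19:4059448-4059697, minus strand): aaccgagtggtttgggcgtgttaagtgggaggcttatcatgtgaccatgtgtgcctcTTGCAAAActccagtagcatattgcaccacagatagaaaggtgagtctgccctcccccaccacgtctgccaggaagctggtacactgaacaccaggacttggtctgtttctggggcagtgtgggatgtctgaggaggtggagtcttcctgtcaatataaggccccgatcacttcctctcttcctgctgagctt

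A few members were strongly higher in Axin2+ arrays and more were modestly lower. The steepest rises were in Cyp2s1 (17.6-fold), Cyp2b10 (13.4-fold), Cyp4f39 (5.09-fold), Cyp2f2 (3.67-fold) and Gsto1 (3.36-fold). The steepest falls were in Cyp3a13 (2.33-fold) and Cyp4v3 (1.96-fold), and all 3 measured genes of the Pi class of GSTs fell, by 1.33-fold to 1.60-fold. Of the other members that passed, Cyp4b1 rose 2.17-fold and Cyp2c55 fell 1.53-fold, and the rest changed by at most 1.33-fold. Differences were tested with limma over all 22180 genes, with Benjamini-Hochberg adjustment and a threshold of 0.05. Each is the Axin2+ mean less the SP-C+ mean of log2 values, so that positive differences are rises, with limma's moderated standard error (SE).

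Of the 89 members, 7 were higher, 10 lower and 72 did not pass. Across all genes 8.61% were called higher and 8.95% lower, or 17.6% in either direction, against 7.87%, 11.2% and 19.1% of the members, so the members as a whole were called about as often as genes in general. The groups did not overlap in 9 members that were higher and 9 that were lower; among all genes this held for 7.38% and 7.66%, or 15.0% in either direction. The median difference was -0.03 over the members and -0.04 over all genes. P450 genes split into 5 higher and 5 lower of 72, and GST genes into 2 higher and 5 lower of 17. SP-C+ replicates 4 and 5 were also left out, an alternative chosen with earlier results of these data known. Without them the P450 counts were 6 higher and 6 lower, and without SP-C+ replicates 1, 2 and 3 they were 6 and 3.

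Whether a member lay above the array median was read against all 41345 probe sets of the same array, whose medians were between 5.89 and 5.97. Such values do not rank genes against each other, since probe sets bind with different strength, and a low value is not proof of absence. Medians over genes were higher, at 6.27 to 6.43, so most genes lay above this line on each array. Calls among all genes above or below it were not counted. The calls on either side can therefore not be compared with genes of like brightness. On all 10 arrays 25 members lay above the median, 13 P450 and 12 GST genes, and 3 of these rose and 10 fell. On no array did 54 members lie above it, 49 P450 and 5 GST genes, and of these only Gsto2 passed the test. The remaining 10 crossed the median on some arrays, all of them P450 genes. Among these, Cyp4f39 was above it on 0 SP-C+ and all 5 Axin2+ arrays and Cyp2b10 on 1 and 5, while Cyp4x1 was above it on 5 SP-C+ and 2 Axin2+ arrays and did not pass the test (-0.16 ± 0.09 SE).

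**Figure D1:**
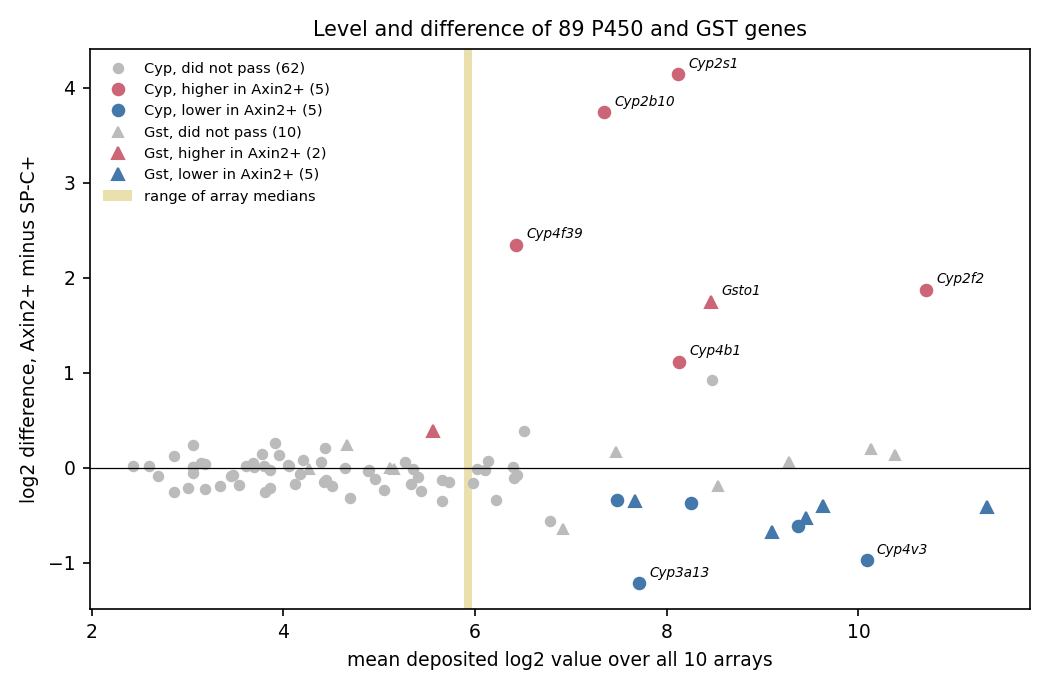
Mean deposited log2 value over all 10 arrays (horizontal) against the log2 difference between Axin2+ and SP-C+ arrays (vertical) for the 89 members. Circles are P450 genes, triangles GST genes, colours mark the limma call and the yellow band spans the array medians of 5.89 to 5.97; called genes beyond 0.9 in either direction are named. The 54 members below the median on every array have means of at most 5.66 and differ by -0.32 to 0.38.

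The labelled cell type was checked with marker genes. All 12 AEC2 markers lay above the array median on every array of both groups, with list means of 13.07 to 13.13 in SP-C+ and 12.86 to 12.98 in Axin2+ arrays, and 2 of the 12 were lower in Axin2+ arrays. The brightest, Sftpc, measured 13.97 to 14.15, close to the highest value of any probe set on each array (14.06 to 14.16). Differences between groups may not show at that level. Markers of other lung cells moved with the comparison, since 14 of 14 markers of type 1 alveolar cells (AEC1s), 9 of 12 ciliated cell markers and 5 of 12 club cell markers were higher in Axin2+ arrays. Their list means were 9.06 to 9.53 against 11.51 to 11.88 for AEC1s, 5.97 to 6.15 against 7.90 to 8.23 for ciliated cells and 6.75 to 7.02 against 7.41 to 7.85 for club cells. One ciliated marker, Ccno, was lower. The part of these cell types in the P450 and GST results was not tested, and in sorted bulk RNA more cells of a type and more RNA per cell cannot be told apart. Of the other lists, 0 were higher and 2 lower of 11 leukocyte genes, 0 and 0 of 8 endothelial, 0 and 1 of 11 mesenchymal and 0 and 0 of 8 hepatocyte genes. All marker counts stand against 8.61% of all genes called higher and 8.95% called lower. SP-C+ replicate 1 stood apart in the endothelial list, with a mean of 7.33. The other SP-C+ arrays had 6.05 to 6.67 and Axin2+ arrays 6.25 to 6.46. In the leukocyte list replicate 1 had 6.05, against 5.58 to 5.66 and 5.35 to 5.52. In the mesenchymal list it had 6.26, against 5.79 to 5.96 and 5.74 to 5.99. It was also the highest SP-C+ array in the AEC1 list, at 9.53 against 9.06 to 9.23 in the others. Among members it was the highest SP-C+ array in some, such as Cyp2c55 and Gstm1, and the lowest in others, such as Cyp2f2 and Gstp1. The part of these markers in the values of that array was not tested for any member.

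Cyp2s1, a P450 of epithelia outside the liver, gave the largest difference of all members. It measured 6.03, 6.00, 6.25, 6.03 and 5.93 in SP-C+ replicates 1 to 5 and 9.87, 10.19, 10.03, 10.40 and 10.45 in Axin2+ replicates 1 to 5. SP-C+ arrays were near the array median and Axin2+ arrays far above it, with no overlap. The difference was 4.14 ± 0.11 (SE, n = 5 per group, limma adjusted p = 2.06e-10).

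Cyp2b10, a P450 that the liver induces in response to phenobarbital, measured 6.66, 4.52, 5.29, 5.75 and 5.17 in SP-C+ arrays and 9.19, 8.93, 9.26, 9.52 and 9.18 in Axin2+ arrays. All Axin2+ arrays lay above all SP-C+ arrays. SP-C+ replicate 1 was the highest of its group, as it was in endothelial, leukocyte, mesenchymal and AEC1 markers. A link between the 2 was not tested. The difference was 3.74 ± 0.30 (SE, limma adjusted p = 1.52e-06). The P450s of the 2b subfamily are closely related, and the other 4 measured here (Cyp2b9, Cyp2b13, Cyp2b19 and Cyp2b23) had differences between -0.00 and 0.15 with none passing.

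Cyp2f2, the club cell P450 that activates naphthalene, measured 9.17, 9.35, 9.79, 10.35 and 10.21 in SP-C+ arrays and 11.83, 11.77, 11.60, 11.70 and 11.33 in Axin2+ arrays. It was thus well above the array median in both groups, and higher in every Axin2+ array than in any SP-C+ array (1.87 ± 0.21 SE, limma adjusted p = 3.01e-05). A second Cyp2f2 probe set gave 6.44 ± 0.02 (SD, n = 5) and 7.11 ± 0.22, a difference of 0.67 ± 0.10 SE (adjusted p = 0.00168 over all probe sets). The 2 probe sets moved the same way but differed in size. Scgb1a1, which encodes the secretoglobin that defines club cells, measured 10.44, 9.30, 11.28, 10.60 and 9.72 in SP-C+ and 12.79 to 13.17 in Axin2+ arrays.

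Cyp4b1, a lung P450 that hydroxylates fatty acids and activates the toxin 4-ipomeanol, measured 8.30, 8.20, 8.10, 6.42 and 6.85 in SP-C+ arrays and 8.59, 8.47, 8.55, 9.07 and 8.78 in Axin2+ arrays. SP-C+ replicates 4 and 5 were far below the other 3, which lay close under the Axin2+ arrays. The difference of 1.12 ± 0.33 (SE, limma adjusted p = 0.0336) was a call that ended without SP-C+ replicate 5 (0.93, adjusted p = 0.0714) and without Axin2+ replicate 1, 3, 4 or 5 (adjusted p = 0.0566 to 0.0800).

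Cyp4f39 is the mouse counterpart of human CYP4F22, which hydroxylates very long fatty acids for the lipid barrier of the skin. It measured 5.10, 5.37, 5.43, 5.51 and 4.85 in SP-C+ arrays and 7.45, 7.45, 8.0, 7.57 and 7.53 in Axin2+ arrays, a difference of 2.35 ± 0.14 (SE, limma adjusted p = 9.91e-08). The lowest Axin2+ array was well above the highest SP-C+ array. Of the 9 genes of the 4f subfamily, whose enzymes hydroxylate fatty acids and eicosanoids at their end, it was the only 1 that rose. Cyp4f17, its next neighbour on chromosome 17, fell by 0.37 (SE 0.10, limma adjusted p = 0.0188), from 8.28 to 8.68 in SP-C+ to 7.89 to 8.30 in Axin2+ arrays, so that the groups overlapped narrowly. Its call ended without Axin2+ replicate 4 (adjusted p = 0.0517) and without SP-C+ replicates 1, 2 and 3 (adjusted p = 0.0865). Cyp4f13 measured 8.20, 8.28, 8.76, 8.40 and 6.40 in SP-C+ arrays and 8.82 to 8.98 in Axin2+ arrays. The groups did not overlap, yet the difference of 0.92 ± 0.34 SE did not pass (limma adjusted p = 0.0798). The low value belonged to SP-C+ replicate 5, and without that array the difference was 0.52 ± 0.11 and passed (adjusted p = 0.00607). It also passed without SP-C+ replicate 3 (1.11 ± 0.33, limma adjusted p = 0.0442). The pass without replicate 5 rests on leaving out the outlying array.

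Cyp3a13, a family 3 P450 found in many tissues beside the liver, had the largest fall. SP-C+ arrays gave 8.57, 8.45, 8.75, 7.54 and 8.27 and Axin2+ arrays 7.19, 7.09, 6.91, 7.17 and 7.13. SP-C+ replicate 4 was the lowest of its group but still above all Axin2+ arrays, and the difference was -1.22 ± 0.18 (SE, limma adjusted p = 4.68e-04). The other 6 family 3 genes lay below the array median on all 10 arrays and did not pass.

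Cyp4v3 is the counterpart of CYP4V2, a fatty acid hydroxylase mutated in a crystalline retinal dystrophy. Its values were 10.73, 10.78, 10.63, 10.54 and 10.18 in SP-C+ and 9.51, 9.49, 9.52, 9.70 and 9.76 in Axin2+ arrays (-0.97 ± 0.11 SE, limma adjusted p = 5.27e-05). No Axin2+ array reached the lowest SP-C+ array. A probe set shared with its neighbour Klkb1 was also lower (-0.91 ± 0.23 SE, adjusted p = 0.0278 over all probe sets).

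Cyp2c55, an arachidonic acid hydroxylase, fell by 0.61 (SE 0.13, limma adjusted p = 0.00441). It measured 9.92, 9.78, 9.87, 9.47 and 9.36 in SP-C+ and 8.80, 9.18, 8.95, 9.20 and 9.20 in Axin2+ arrays, with no overlap. SP-C+ replicates 4 and 5 were the nearest to the Axin2+ arrays, and without replicates 1, 2 and 3 the difference was -0.35 and did not pass (adjusted p = 0.119). Its other probe set lay far below the array median, at 3.58 ± 0.20 (SD) and 3.75 ± 0.50, and did not move in this direction (0.17 ± 0.21 SE, adjusted p = 0.709 over all probe sets). It was the only called gene among 14 of the 2c subfamily, of which 12 lay below the array median throughout.

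Cyp2j6, of a subfamily that makes epoxides of arachidonic acid, fell by 0.34 (SE 0.09, limma adjusted p = 0.0198). SP-C+ arrays ran from 7.47 to 7.80 and Axin2+ arrays from 7.16 to 7.43, side by side without overlap. The call ended without Axin2+ replicate 3 (adjusted p = 0.0571) or 4 (adjusted p = 0.0546) and without SP-C+ replicates 1, 2 and 3 (adjusted p = 0.119). Cyp2d22, of the subfamily of the human drug-metabolising CYP2D6, was the first member outside the threshold (-0.56 ± 0.19 SE, limma adjusted p = 0.0611), as Gstm1 was the last inside it (adjusted p = 0.0359). Its SP-C+ value in replicate 1 was 7.81, against 6.75 to 7.15 in the others. That array was the highest SP-C+ array in endothelial, leukocyte, mesenchymal and AEC1 markers, and a link to this value was not tested.

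**Figure D2:**
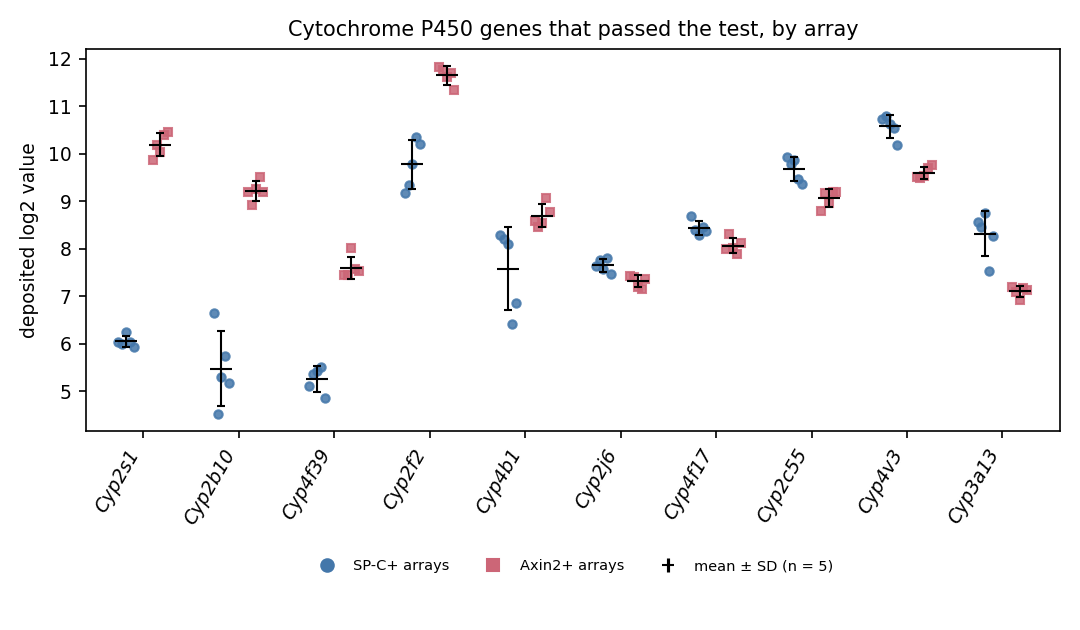
Deposited log2 values of the 10 P450 genes that passed the test, in order of their difference, for 5 SP-C+ arrays (circles) and 5 Axin2+ arrays (squares), with mean ± SD. Cyp2s1, Cyp2b10 and Cyp4f39 separate widely, and Cyp4b1 has SP-C+ replicates 4 and 5 at 6.42 and 6.85 below its other values.

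The family 1 genes, which respond to aromatic hydrocarbons through the receptor AHR, did not pass. Cyp1a1, the best known AHR target, measured 5.17 to 5.74 in SP-C+ and 5.25 to 5.54 in Axin2+ arrays (-0.10 ± 0.12 SE), and Cyp1b1, which also oxidises oestrogens, 4.78 to 5.04 and 4.76 to 4.96 (-0.03 ± 0.08 SE). All 3 family 1 genes were below the array median throughout. Cyp2a5, a coumarin hydroxylase of the liver and nose, lay between 2.83 and 3.21 on all arrays (-0.06 ± 0.08 SE). Cyp2e1, the ethanol-oxidising P450, lay between 5.44 and 6.18 (-0.15 ± 0.12 SE), with its highest value in SP-C+ replicate 1. Neither gene passed the test.

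Among GST genes the Omega class rose. Gsto1, which reduces dehydroascorbate and arsenic compounds, measured 7.60, 7.77, 7.92, 7.02 and 7.65 in SP-C+ and 9.27, 9.03, 9.49, 9.27 and 9.64 in Axin2+ arrays. The groups were more than 1 unit apart, and the difference was 1.75 ± 0.16 (SE, limma adjusted p = 5.59e-06). Gsto2, its next neighbour on chromosome 19 and a dehydroascorbate reductase as well, measured 5.26 to 5.46 and 5.53 to 5.87, a small rise of 0.38 ± 0.08 (SE, adjusted p = 0.0061) without overlap. It stayed below the array median on every array.

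All 3 Pi class genes fell. Pi class GSTs conjugate electrophiles, and Gstp1 also binds the stress kinase JNK. Gstp1 measured 11.35, 11.47, 11.75, 11.63 and 11.54 in SP-C+ and 11.19, 10.98, 11.16, 11.10 and 11.23 in Axin2+ arrays (-0.41 ± 0.09 SE, limma adjusted p = 0.00568). Gstp2 measured 9.43, 9.65, 9.43, 9.41 and 9.29 against 8.72, 8.83, 8.85, 8.69 and 8.73 (-0.68 ± 0.08 SE, limma adjusted p = 5.78e-05). In both genes every Axin2+ array was below every SP-C+ array. Gstp3 overlapped, with 9.40 to 10.20 against 8.82 to 9.46 (-0.52 ± 0.15 SE, limma adjusted p = 0.0305), and its call ended without SP-C+ replicates 4 and 5 (-0.37, adjusted p = 0.0983), without SP-C+ replicate 3 or 4 and without Axin2+ replicate 2, 3 or 4 (adjusted p = 0.0516 to 0.0748). A probe set that the platform assigns to both Gstp1 and Gstp2 was lower too (-0.52 ± 0.09 SE, adjusted p = 0.00418 over all probe sets). Gstp1 and Gstp2 share that probe set, so the share of each of them in the fall is uncertain.

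Of 4 Theta class genes, Gstt3 fell by 0.41 (SE 0.09, limma adjusted p = 0.00564), from 9.65 to 9.97 in SP-C+ to 9.30 to 9.59 in Axin2+ arrays. Gstt1, which acts on small halogenated compounds, measured 9.96 to 10.69 and 10.25 to 10.63 (0.13 ± 0.13 SE) and did not pass. Of 6 Mu class genes, Gstm1 alone passed (-0.35 ± 0.10 SE, limma adjusted p = 0.0359), with 7.68 to 8.12 in SP-C+ and 7.26 to 7.67 in Axin2+ arrays. Its groups met without overlap, and the call ended without SP-C+ replicate 1, 2 or 3 or Axin2+ replicate 1, 2 or 4 (adjusted p = 0.0563 to 0.0874) and without SP-C+ replicates 1, 2 and 3 together (adjusted p = 0.264). Gstm2, which lies beside it, measured 8.92 to 9.63 and 9.17 to 9.44 (0.06 ± 0.12 SE).

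Alpha class genes did not pass. Gsta4, the main GST for the lipid peroxidation product 4-hydroxynonenal, measured 10.11, 9.93, 9.98, 9.94 and 10.21 in SP-C+ and 10.31, 9.79, 10.43, 10.30 and 10.31 in Axin2+ arrays (0.19 ± 0.12 SE, limma adjusted p = 0.309). Axin2+ replicate 2 was the lowest of all 10, and without it the difference was 0.30 and passed (limma adjusted p = 0.0344). That pass rests on leaving out the outlying array. Gsta3, which in mice detoxifies aflatoxin epoxide, spread from 6.60 to 8.01 in SP-C+ and from 6.26 to 6.92 in Axin2+ arrays (-0.65 ± 0.23 SE, limma adjusted p = 0.0775). Its SP-C+ replicates 4 and 5 (6.60 and 6.82) lay among the Axin2+ values, and without those 2 arrays the difference was -1.01 and passed (limma adjusted p = 0.00373). Leaving out the SP-C+ arrays nearest to Axin2+ widens the difference by construction, so this pass is not support for a fall. SP-C+ replicate 1, the highest of its group in endothelial, leukocyte, mesenchymal and AEC1 markers, was the highest in Gsta3 too. A link was not tested.

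**Figure D3:**
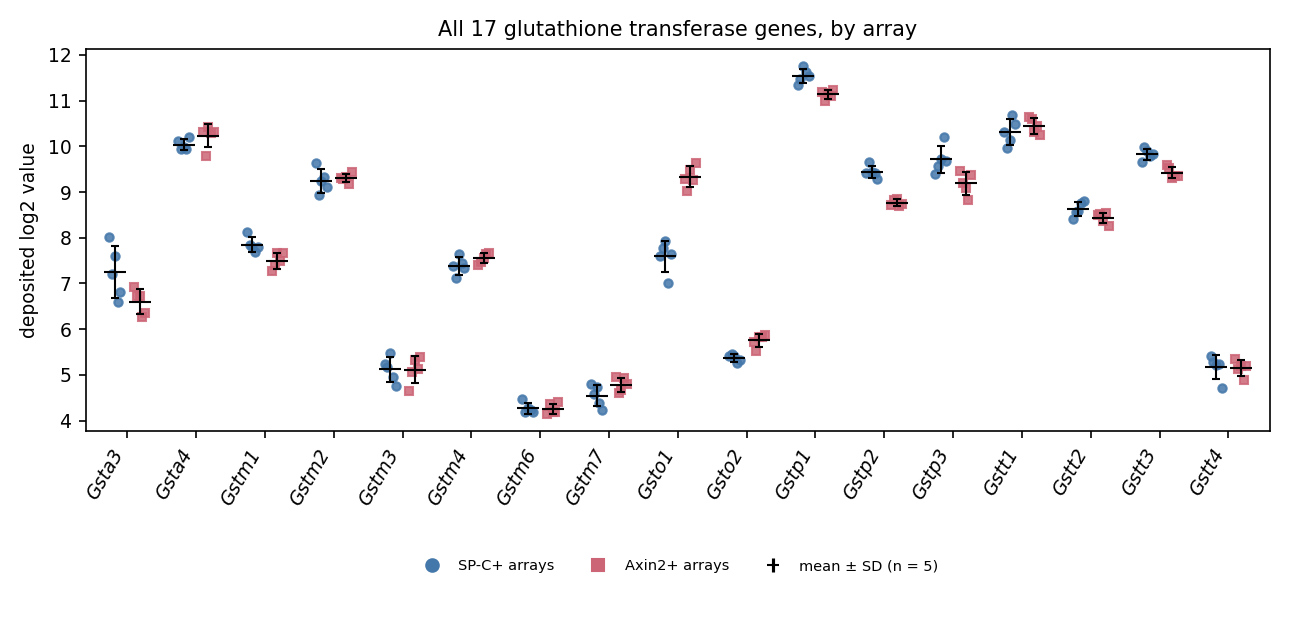
Deposited log2 values of all 17 GST genes for 5 SP-C+ arrays (circles) and 5 Axin2+ arrays (squares), with mean ± SD. The Pi class genes are lower in Axin2+ arrays by 0.41 to 0.68, Gsto1 is higher by 1.75, and 5 genes stay below the array median on every array.

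Of the members, 88 had a place in the RefSeq gene order and lay in 23 runs, some of 1 gene, in which neighbouring members are separated by at most 10 other protein-coding genes on GRCm38.p6. The largest runs had 13 members each. In the chromosome 7 run, from Cyp2s1 to Cyp2t4, 3 of 13 rose and 0 fell, and in the chromosome 19 run, from Cyp2c55 to Cyp2c70, 0 rose and 1 fell. Over all genes 8.61% were called higher and 8.95% lower. The chromosome 7 run was followed as the run that holds Cyp2s1, the member with the largest difference, so its count is no independent result. Cyp2s1 and Cyp2b10 are direct neighbours at one end of the chromosome 7 run and Cyp2f2 lies near the other end. The 8 members between Cyp2b10 and Cyp2f2 other than Cyp2a12 (0.21 ± 0.12 SE) differed by -0.07 to 0.15, and none of them passed. Outside the run, Axl beside Cyp2s1 did not pass (-0.07 ± 0.15 SE) and Egln2 beside Cyp2t4 fell by 0.23 (SE 0.07, limma adjusted p = 0.0334). Cyp2t4 itself did not pass (-0.35 ± 0.14 SE), so that in this chromosome 7 run the only direct neighbours that both rose were Cyp2s1 and Cyp2b10.

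**Figure D4:**
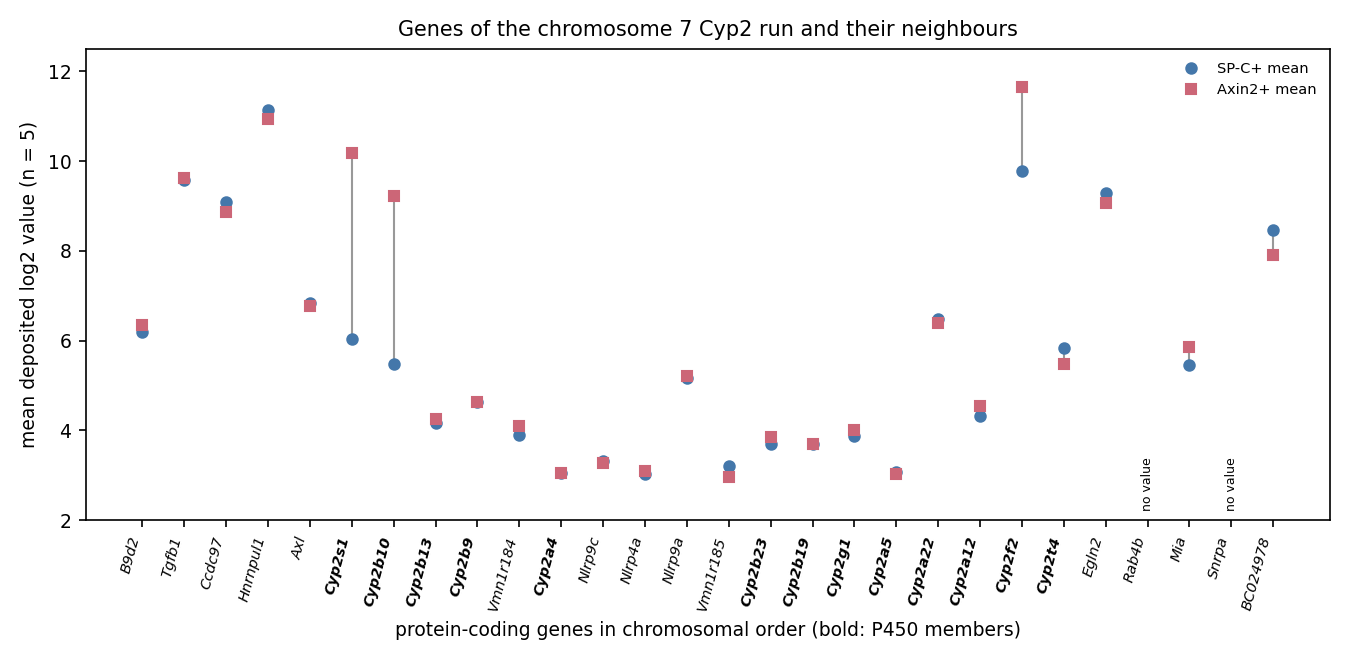
Group means of the deposited log2 values (circles SP-C+, squares Axin2+, n = 5 each) for protein-coding genes in chromosomal order through the chromosome 7 run and 5 genes on either side; members are in bold. The longest lines join the means of Cyp2s1, Cyp2b10 and Cyp2f2, which differ by 4.14, 3.74 and 1.87, and genes without a probe set of their own have no points.

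Promoters of 75 members were matched by symbol, with 89 windows in all. Motifs were searched on both strands, and a match is a description of the letters only. No printed window held more than 1 match, so none overlapped another there. The antioxidant response element core TGACNNNGC, bound by NRF2, was in 4.49% of member windows against 10.2% of all 32851 promoter windows of this length, and the dioxin response element core TNGCGTG, bound by AHR, in 1.12% against 4.10%. Only these letters were searched, so low shares do not show that related sequences are absent. The Gstp1 and Gstp2 windows hold tgagtcagc, with G for the C of the antioxidant core, which was neither counted nor marked. The TATA box TATAAA was in 27.0% against 12.4%, the C/EBP motif TTGCNNAA in 23.6% against 9.56%, the forkhead motif TGTTTAC in 7.87% against 3.17% and the NKX2-1 core CAAGTG in 14.6% against 11.6%. These 4 motifs were chosen after the members' values were seen. Related genes share promoter sequence, so the windows are not independent of each other.

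In the printed windows Cyp2b10 had a C/EBP match, TTGCATAA, from 58 to 51 bases before the start. The same letters stood in other members. Among these were Cyp2b23, from 85 to 78 bases before its start, and Cyp2b19, not printed, from 40 to 33. Cyp2b23 (0.15 ± 0.15 SE) and Cyp2b19 (0.00 ± 0.08 SE) did not pass. Cyp2b13 had another match, TTGCCAAA, from 180 to 173 bases before the start. In a global alignment Cyp2b10 shared 74.4% of its 250 bases with the Cyp2b13 window, 74.4% with Cyp2b9 and 73.2% with Cyp2b23. Of these genes, Cyp2b10 alone passed the test. Cyp2f2 had an NKX2-1 core match from 191 to 186 bases before the start, and Cyp2s1 had no match to any of the 6 motifs in this window. Gstp1 and Gstp2 shared 83.2% of their windows, and each shared less with Gstp3 (59.2% and 60.8%). Pairs of windows from different P450 subfamilies shared 56.4% to 62.8%, so the values with Gstp3 are no higher than such pairs give. All 3 Pi class genes fell. Any link between promoter sequence and the calls was not tested.

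The genes that work beside these enzymes were followed in further lists. All list counts below stand against 8.61% of all genes called higher and 8.95% called lower. Of 11 measured partners of P450s, such as cytochrome b5 and the heme enzymes, 1 rose and 2 fell (median -0.17): Pgrmc1, a heme-binding membrane protein that interacts with P450s, rose by 0.64 ± 0.12, and Fdx1, the ferredoxin of mitochondrial P450s, and Cyb5b fell by 0.50 and 0.47 (limma adjusted p = 0.00295, 0.0415 and 0.00565). The P450 reductase Por was among the list genes without a probe set of their own. Of 20 P450 genes of other families 1 rose and 2 fell (median -0.10). Cyp27a1, which hydroxylates sterols in mitochondria, rose from 5.22 ± 0.14 to 6.58 ± 0.20 (SD; 1.36 ± 0.11 SE, limma adjusted p = 1.2e-06). Cyp51, the sterol demethylase, and Cyp39a1, an oxysterol hydroxylase, fell by 0.65 and 0.33 (limma adjusted p = 0.00726 and 0.0271). The retinoic acid hydroxylase genes Cyp26a1 and Cyp26b1 did not pass (-0.21 ± 0.12 and -0.11 ± 0.14 SE).

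GSTs and GST-like proteins outside the rule went both ways, with 4 higher and 3 lower of 17 (median -0.03). Clic5, a chloride channel protein with a GST fold that was also in the AEC1 list, rose by 2.71 ± 0.18, and Clic3 by 0.58 ± 0.16 (limma adjusted p = 2.6e-07 and 0.0283). Hpgds, the GST that makes prostaglandin D2, fell by 1.26 and Clic4 by 0.58 (SE 0.13 and 0.09, limma adjusted p = 1.4e-05 and 7.47e-04). Genes of glutathione synthesis and use were mostly lower where they passed, with 1 higher and 10 lower of 32 (median -0.24, against -0.04 for all genes). Over all genes 8.61% were called higher and 8.95% lower. Of the 32, 22 lay above the array median on every SP-C+ array, and calls were not compared with genes of like brightness. Chac1, which degrades glutathione, fell by 0.81 (SE 0.25, limma adjusted p = 0.0438) and Glrx, glutaredoxin, by 0.66 (SE 0.13, adjusted p = 0.00316). Gclc, the catalytic subunit of the first step of glutathione synthesis, was among the lower genes (-0.50 ± 0.12 SE, adjusted p = 0.0111). The 1 that rose was Gpx8 (0.45 ± 0.12 SE, adjusted p = 0.0245).

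Other enzymes of xenobiotic metabolism numbered 5 higher and 7 lower of 55 (median -0.08). Akr1c14, a hydroxysteroid dehydrogenase, rose by 3.50 ± 0.15 and Aldh1a1, a retinaldehyde dehydrogenase of the club cell list, by 2.68 ± 0.12 (limma adjusted p = 5.29e-09 and 1e-08). Fmo4, a flavin monooxygenase, fell by 1.41 and Xdh, xanthine dehydrogenase, by 1.06 (SE 0.28 and 0.29, limma adjusted p = 0.00327 and 0.0258). NRF2 target genes outside the family numbered 1 higher and 4 lower of 18 (median -0.30), against 8.61% and 8.95% of all genes. Some of them, such as Gclc and Gsr, were also in the lists above. Their list mean was 9.42 in SP-C+ replicate 1, 9.0 and 9.05 in replicates 2 and 3, and 8.75 and 8.73 in replicates 4 and 5, which lay within the Axin2+ range of 8.61 to 8.76. Osgin1 fell by 0.87 and Gsr, glutathione reductase, by 0.63 (SE 0.20 and 0.18, limma adjusted p = 0.00811 and 0.0272), and Ephx1, microsomal epoxide hydrolase, rose by 0.46 ± 0.13 (adjusted p = 0.0237).

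Of 36 regulators of P450 and GST genes 0 rose and 7 fell (median -0.18), against 8.61% and 8.95% of all genes. Of the 36, 26 lay above the array median on every SP-C+ array, and calls were not compared with genes of like brightness. Pparg, a lipid-sensing nuclear receptor, fell by 1.03 (SE 0.18, limma adjusted p = 0.00161) and Esr1, oestrogen receptor alpha, by 0.74 (SE 0.11, adjusted p = 3.06e-04). The others were Bach1, Cebpa (also in the AEC2 list), Bach2, Nr1h3 and Ppara. The xenobiotic receptors did not pass: Ahr differed by 0.06 ± 0.09 SE, Nr1i2 (PXR) by 0.05 ± 0.11, Nr1i3 (CAR) by -0.06 ± 0.09 and Nfe2l2 (NRF2) by -0.24 ± 0.10.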

How the data were processed

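The deposited values are log2 probe set values from 10 arrays (41345 probe sets), as the authors normalized them. The tools oligo, RMA and limma are listed in the submitters' processing notes, with no version or role, and the log base was read from the values' range. Per the labels' protocols, 100 ng of RNA was linearly amplified and labelled. The number of arrays limits the precision. Of the probe sets, 23521 had 1 symbol in the platform annotation, 1814 several and 16010 none. All 89 members matched the RefSeq table (GRCm38.p6) by gene ID under the same symbol.

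Groups came from the titles. All 22180 genes were fitted with lmFit and eBayes (limma 3.58.1, R 4.3.3), two-sided and without covariates. The fit was tested on simulated data.

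Members, gene lists and alternatives were chosen with earlier results of these data known. The rule for names took, among members, up to 12 called rises and 12 called falls by size, the 6 brightest P450 and 6 brightest GST genes, 16 well known genes and the pair at the threshold, and from every other list up to 2 rises and 2 falls. Other genes were named after their values were seen. Alternatives were a replicate block, other between-array scalings (median, quantile), filters at the 25th or 50th percentile, other probe set choices, a variance trend, array weights, a fit to all probe sets, stricter thresholds and fewer arrays.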

Additional observations from a re-analysis of the deposited data

Results flagged for a closer look

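Of 54 groups of 5 arrays (27 named members in each population), 6 held 1 array whose gap to the next, as a share of the group's range, was above Dixon's critical value for 5 samples; chance does this in about 1 of 20 groups. Cyp4f39 was highest in Axin2+ replicate 3, at 8.0 against 7.45 to 7.57 in the others. Cyp4f13 was lowest in SP-C+ replicate 5, at 6.40 against 8.20 to 8.76, and lowest in Axin2+ replicate 1, at 8.82 against 8.95 to 8.98. Gsta4 was lowest in Axin2+ replicate 2, at 9.79 against 10.30 to 10.43. Cyp2a5 was lowest in Axin2+ replicate 3, at 2.83 against 3.04 to 3.09, a narrow range at a low level. Cyp2e1 was highest in SP-C+ replicate 1, at 6.18 against 5.61 to 5.76. That array had an endothelial list mean of 7.33 and was also the highest SP-C+ array in the leukocyte, mesenchymal and AEC1 lists. A link to the Cyp2e1 value was not tested.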

How the results depend on the processing

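Of the 17 called members, 8 kept direction and call in all alternatives in which they were tested: Cyp2s1, Cyp2b10, Cyp4f39, Cyp2f2, Gsto1, Cyp3a13, Cyp4v3 and Gstp2. The 5 rises among P450 genes stayed within 1.5 times that count in all alternatives, as did the 25 members above the array median (19 to 31). The 5 falls among P450 genes became 3 with the replicate number as a block, without SP-C+ replicates 1, 2 and 3, at an adjusted p under 0.01, and with a 1.5-fold minimum added. The 2 GST rises became 1 among genes above the 50th percentile, where Gsto2 was not tested, and 1 with the 1.5-fold minimum. The 5 GST falls became 3 in the fit over all probe sets, 3 at an adjusted p under 0.01 and 1 with the 1.5-fold minimum. Leaving out each array gave 4 to 6 P450 rises, 3 to 6 P450 falls (3 without Axin2+ replicate 4), 2 to 3 GST rises and 3 to 6 GST falls (3 without Axin2+ replicate 2, Axin2+ replicate 4 or SP-C+ replicate 3). Nothing in the labels says that equal replicate numbers mark a pair, and same-numbered arrays did not deviate together, with correlations of -0.229 to 0.013. The highest correlation with an array of another number was 0.127 to 0.21. As the largest of several, it says nothing for or against pairing. With the replicate number as a block the counts were 4 P450 rises and 4 GST falls, Cyp4b1, Cyp4f17, Cyp2j6, Gstp3 and Gstm1 lost their calls (adjusted p = 0.0535 to 0.101), and Gsta3 gained one (-0.65 ± 0.12 SE, adjusted p = 0.00935). Small differences that had not passed changed sign in 3 cases: Gstt1 was -0.14 without SP-C+ replicates 1, 2 and 3, Gstm2 was -0.02 without SP-C+ replicate 2 (-0.02 to 0.15 over all arrays left out), and Cyp1b1 was 0.00 without SP-C+ replicate 4 (-0.06 to 0.00). Cyp2c55 did not pass as the mean of its 2 probe sets (-0.22, adjusted p = 0.333). No called member changed direction. The causes were not tested. For the 54 members below the array median on every array, signal over background limits what the arrays can show.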

Other observations

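Cyp2r1, which makes 25-hydroxyvitamin D, did not differ by the test (0.39 ± 0.44 SE, limma adjusted p = 0.624), but its SP-C+ arrays lay at 2 levels. Replicates 1, 3 and 5 measured 7.34, 7.11 and 7.14, and replicates 2 and 4 measured 4.84 and 5.15, while Axin2+ arrays lay together between 6.53 and 6.89. No other member had an SD as high as its 1.22 in either group. The gene was picked after its values were seen.

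Alpha class GST genes Gsta1 and Gsta2 share their probe sets with each other and with predicted genes, so they were not among the 89. Their 3 probe sets differed by -0.34 ± 0.14, -0.07 ± 0.15 and 0.12 ± 0.14 (SE), with adjusted p-values over all probe sets of 0.171, 0.854 and 0.671. Of 11 probe sets of the families with several symbols, 0 were higher and 2 lower. Of 8 probe sets with 1 symbol just outside the rule, such as pseudogenes and Cyp2ab1, 0 were higher and 0 lower at an adjusted p under 0.05 in limma.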
